A study of Mus musculus with 12 samples.

Results

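Genes with a transient peak in the middle of reprogramming were defined by their levels in 6 of 12 mRNA-Seq libraries. Levels were compared as log2(FPKM + 1) over 14178 kept genes, those that reached 1 FPKM in some library, where FPKM is a fragment count scaled by transcript length and by the size of the library. A gene was a member when the lower of its values in D6T- and D9T- lay at least 1 log2 unit, or 2-fold on the FPKM + 1 scale, above the highest of D0, D16S+, iPSCs and ESD3. The rule found 239 genes (1.69% of kept genes), and 234 were retained after Adh7, Aldh3a1, Slurp1, Lgals7 and Krt13 were set aside. Krt6a, a keratin whose symbol carries a letter, remained among the 234.

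The study followed mouse embryonic fibroblasts (MEFs), in which GFP was tagged to Oct4, after infection with pMXs retroviruses for Oct4, Sox2, Klf4 and c-Myc (OSKM). By the labels, the cells reprogrammed with no feeder layer in FF medium, a serum-replacement medium holding LIF, bFGF, ascorbic acid and CHIR99021, a GSK3 inhibitor. D0 is the starting MEFs and D3 the unsorted culture on day 3. On days 6 and 9 cells were sorted by Thy-1, a fibroblast surface protein, into T- and T+ fractions, and on days 12 and 16 by SSEA-1, a carbohydrate antigen found on pluripotent cells, into S+ and S- fractions. The Thy-1- and SSEA-1+ fractions were taken as cells on the successful route and the others as cells on the unsuccessful route. iPSCs and the mouse embryonic stem cell line D3 (ESD3) were, by the labels, grown in it too. The study's methods name further media for reprogramming and others for the stem cells, so a difference in medium between the reprogramming libraries and the low libraries iPSCs and ESD3 cannot be told apart from cell state. Each condition was 1 library, so no value below has a replicate error, no p-value was computed, and a difference is between 2 libraries. The change of sorting marker after day 9 lies between the T and S libraries and cannot be told apart from time.

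Fibroblasts that receive OSKM first lose their mesenchymal program and later activate the endogenous pluripotency network. Between those states the cells are known to transcribe genes that belong to neither, among them genes of epidermal, neural and other lineages. Virus-borne factors are active in this window and are commonly silenced in pluripotent cells. For Klf4 and Myc, which are members, viral and endogenous transcripts share a coding sequence and their reads were not separated.

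The sorts matched their labels at the RNA level. Thy1 stood at 3.24 FPKM in D6T- against 477 in D6T+, and at 3.72 in D9T- against 491 in D9T+. Nanog, a core pluripotency gene, reached 192 FPKM in D16S+ against 8.99 in D16S-, beside 143 in iPSCs and 137 in ESD3. Depth relative to D0, read from the most common FPKM ratio to D0 among low genes, ran from 0.967 in D9T+ to 1.56 in D6T-. Total FPKM ran from 484968 in D16S+ to 648264 in D0, and scaling each library to the same total moved the difference of the kept-gene medians between D3 and D0 from -0.04 to 0.19. In bulk RNA, fewer cells of a type and less RNA per cell cannot be told apart.

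The members made up a small part of each transcriptome and the choice of members set the shape of their profile. Their summed FPKM was 0.187% of the total in D0, 1.82% in D9T- and 0.138% in ESD3. The median member stood at 0.933 FPKM in D0, 5.46 in D3, 12.9 in D6T-, 14.6 in D9T-, 5.54 in D12S+, 1.79 in D16S+, 0.580 in iPSCs and 0.714 in ESD3. On the other route it stood at 6.71 FPKM in D6T+, 11.3 in D9T+, 11.1 in D12S- and 7.24 in D16S-. The levels in D6T-, D9T-, D0, D16S+, iPSCs and ESD3 were used by the rule and are a description. Those in D3, D6T+, D9T+, D12S+, D12S- and D16S- were not.

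**Figure D1:**
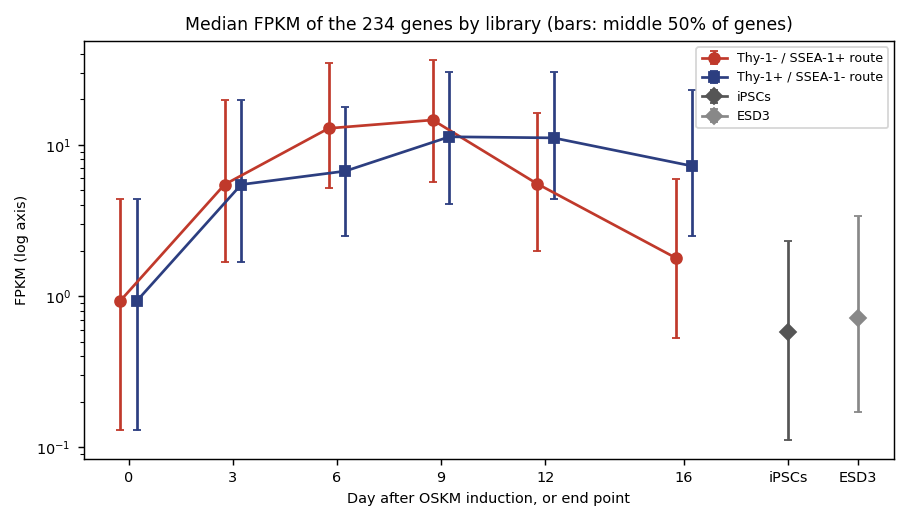
Median FPKM of the 234 transient genes (log axis) by day after OSKM induction for the Thy-1- then SSEA-1+ route (circles) and the Thy-1+ then SSEA-1- route (squares), with iPSCs and ESD3 as diamonds; D0 and D3 are shared by both routes and bars span the middle 50% of genes. The circles go from 14.6 in D9T- to 5.54 in D12S+ and 1.79 in D16S+, while the squares stay at 11.1 in D12S- and 7.24 in D16S-.

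The margin over the highest low library was modest for most members. Its median was 1.41 log2 units, 57 members reached 2 and 14 reached 3. The highest of the 4 low libraries was D16S+ for 123 members, D0 for 68, ESD3 for 31 and iPSCs for 12. Peak levels were under 5 FPKM in 36 members, at least 10 FPKM in 153 and at least 100 FPKM in 26. The members just inside the threshold were Fndc1, Zbtb7c, Ankrd29, Baiap2 and Ednrb, at margins of 1.003 to 1.011. Just outside it were Zbtb12, 2300002M23Rik, Arhgap26, Dusp14 and 2610034M16Rik, at 0.987 to 0.998. The intervals that cuffdiff attached to single FPKM values were wide. Over member values of at least 10 FPKM in D6T- and D9T-, the median half-width was 98.3% of the FPKM. The lower end of the interval was 0 for 146 members in D6T- and for 146 in D9T-. In D6T- the interval lay above those of all 4 low libraries for 2 members, Akr1c18 and Hbb-y, and in D9T- for 2, Hbb-y and Tac2. Only Hbb-y was so separated in both libraries. The choice of any other single member, whatever its margin, was therefore not resolved at this precision.

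Hbb-y, the embryonic beta-like globin, had the largest margin at 6.80 log2 units. It was listed at 0.0996 FPKM in D0, 117 in D3, 305 in D6T-, 72.1 in D6T+, 324 in D9T-, 82.9 in D9T+, 9.33 in D12S+, 27.1 in D12S-, 1.74 in D16S+, 9.93 in D16S-, 0.273 in iPSCs and 0.290 in ESD3. It was high from day 3 and was higher in the Thy-1- fraction on both days of that sort. The other globin genes examined, Hba-x, Hbb-bh1, Hba-a1 and Hbb-b1, were at or under 0.387 FPKM in every library. As reads of more than 1 locus were removed, a low value of a gene with close paralogs does not show that it was absent. Ptprc, the pan-leukocyte antigen, was at or under 0.425 FPKM throughout, and 0 of the 18 kept genes of a macrophage and leukocyte list were members, where 1.65% of all kept genes were, so that 0 is near the overall share. The summed level of that list was 28.4 FPKM in D6T- and 70.9 in D9T-, against 56.1 in D0 and 232 in D16S-. From D0 to D9T-, 7 of its 18 kept genes were at least 2-fold lower and 2 higher, with a median log2 difference of -0.82. Cd68, a gene of that list, stood at 9.05 FPKM in D0 and 28.0 in D9T-. The shares of all kept genes for D9T- against D0 were not computed. Hbb-y lies on the minus strand of chr7:111000268-111001721 in mm9.

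The next margins belonged to regulators, enzymes and channels of unrelated tissues. Foxd1, a forkhead factor of kidney stroma, stood at 0.258 FPKM in D0, 7.86 in D3, 80.2 in D6T-, 12.4 in D6T+, 72.6 in D9T-, 54.8 in D9T+, 22.1 in D12S+, 44.2 in D12S-, 2.97 in D16S+, 25.1 in D16S-, 0.290 in iPSCs and 0.481 in ESD3. Akr1c18, a hydroxysteroid dehydrogenase that inactivates progesterone, stood at 1.31 FPKM in D0, 120 in D3, 93.4 in D6T-, 40.1 in D6T+, 41.2 in D9T-, 27.8 in D9T+, 5.76 in D12S+, 18.6 in D12S-, 1.04 in D16S+, 8.97 in D16S-, 0.289 in iPSCs and 0.131 in ESD3. Ano1, a calcium-activated chloride channel, stood at 0.422 FPKM in D0, 51.1 in D3, 114 in D6T-, 29.3 in D6T+, 113 in D9T-, 65.1 in D9T+, 40.8 in D12S+, 101 in D12S-, 6.25 in D16S+, 62.2 in D16S-, 0.827 in iPSCs and 0.518 in ESD3. Akr1c18 was highest on day 3 and lower at each later point of both routes, whereas Ano1 in the unsuccessful route was highest in D12S-. Margins of 2.98 to 4.02 were also found for Prkcb, a protein kinase C, Fmo1, a flavin monooxygenase, Avil, an actin-binding protein of the villin family, Aldh1a1, which makes retinoic acid, Dmrtc2, a DM-domain factor of germ cells, the long non-coding RNA Miat, Tmem35, Tox3, Sbspon, Tac2 and Ly6g6f.

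**Figure D2:**
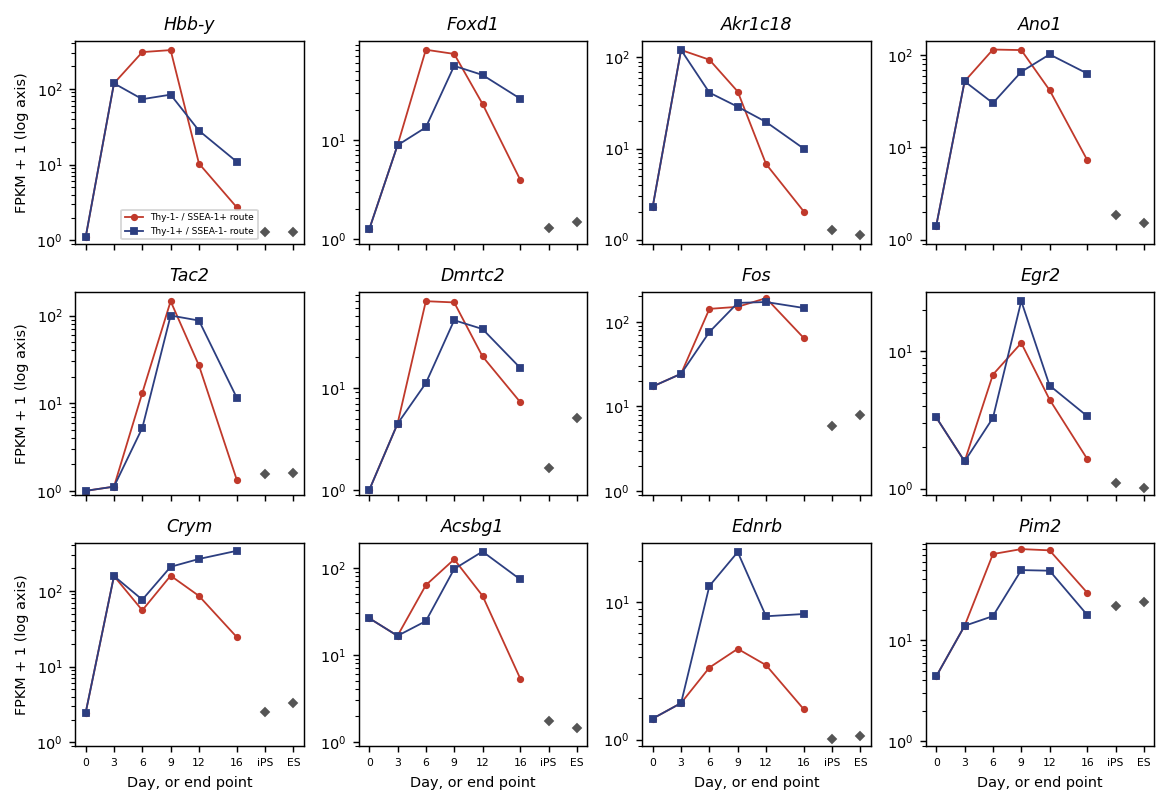
FPKM + 1 (log axis, a separate scale in each panel) of 12 members by day after OSKM induction, with circles for the Thy-1- then SSEA-1+ route, squares for the Thy-1+ then SSEA-1- route and diamonds for iPSCs (iPS) and ESD3 (ES). Foxd1 and Dmrtc2 are higher in the Thy-1- fraction on day 6 and in the SSEA-1- fraction on day 12, Ednrb is higher in the Thy-1+ and SSEA-1- fractions at each time, and Pim2 is higher on the successful route at each time.

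The SSEA-1 fractions of day 12 differed in these genes, in a contrast that the rule did not use. The median member was at 5.54 FPKM in D12S+ and 11.1 in D12S-. Of the 234 members, 227 were lower in D12S+, 72 (30.8%) by at least 2-fold, and 0 were 2-fold higher. Over all kept genes 3.03% were at least 2-fold lower and 4.79% higher. The median log2 difference, D12S+ minus D12S-, was -0.82 for members and -0.01 for all kept genes. A further 789 genes were at least 2-fold above D0 in both D6T- and D9T- but failed the rule on D16S+, iPSCs or ESD3. Of these, 26 (3.30%) were at least 2-fold lower in D12S+, with a median of -0.04. As D16S+, iPSCs and ESD3 set these genes apart from the members, they are no neutral baseline, here or below. Neither day 12 library entered the rule, but D16S+, the later SSEA-1+ library, and the pluripotent iPSCs and ESD3 did. Low values in these may favour low values in D12S+, where Nanog was 78.2 FPKM against 9.48 in D12S-. Without D16S+ in the rule, but with iPSCs and ESD3, the share was 24.6% and the median -0.73.

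The 4 factor genes moved with this contrast. Pou5f1 stood at 2161 FPKM in D12S+ and 2737 in D12S-, Sox2 at 230 and 368, Klf4 at 456 and 762, and Myc at 318 and 627. All 4 were lower in the SSEA-1+ fraction. Of an inflammatory cytokine and chemokine list, 10 of 20 kept genes were at least 2-fold lower there, against 3.03% of kept genes. None of the 20 was a member. The part of the factors and of this list in the result was not tested.

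**Figure D3:**
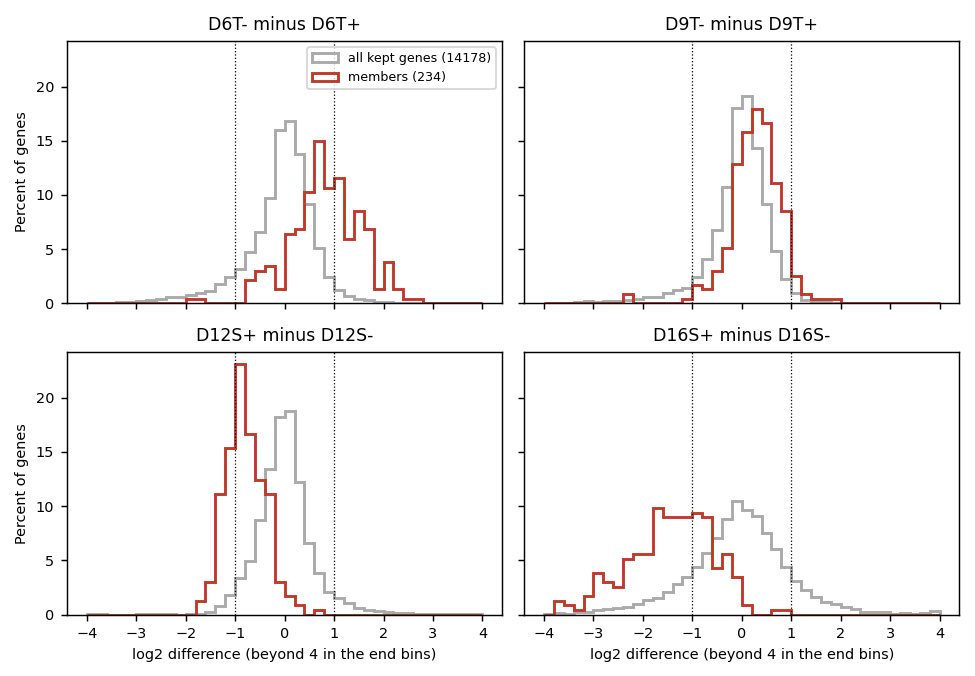
Histograms of log2 differences between the sorted fractions of days 6, 9, 12 and 16 for the 234 members and for all 14178 kept genes, with the y axis in percent of genes, differences beyond 4 drawn in the end bins, and dotted lines at 2-fold. The member histogram lies to the right of the other on day 6 (median 0.80) and to its left on day 12 (median -0.82). Of these fractions the rule used D6T-, D9T- and D16S+ but neither of day 12, and it also asked for low iPSCs and ESD3.

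The members with the largest day 12 differences came from several pathways. Tac2, the precursor of neurokinin B, stood at 0 FPKM in D0, 0.116 in D3, 12.1 in D6T-, 4.23 in D6T+, 145 in D9T-, 99.2 in D9T+, 25.9 in D12S+, 86.8 in D12S-, 0.341 in D16S+, 10.6 in D16S-, 0.560 in iPSCs and 0.596 in ESD3. Acsbg1, an acyl-CoA synthetase for long-chain fatty acids, stood at 25.3 FPKM in D0, 15.5 in D3, 62.1 in D6T-, 23.4 in D6T+, 124 in D9T-, 95.8 in D9T+, 46.7 in D12S+, 152 in D12S-, 4.33 in D16S+, 72.4 in D16S-, 0.718 in iPSCs and 0.457 in ESD3. Crym, a thyroid hormone-binding protein, stood at 1.46 FPKM in D0, 156 in D3, 54.3 in D6T-, 75.3 in D6T+, 157 in D9T-, 206 in D9T+, 84.6 in D12S+, 262 in D12S-, 23.5 in D16S+, 336 in D16S-, 1.48 in iPSCs and 2.34 in ESD3. Their log2 differences, D12S+ minus D12S-, were -1.70, -1.69 and -1.62, followed by Akr1c18 at -1.53 and Avil at -1.52. Tac2 was near the level of the stem cell lines through day 3, while Crym was already high on day 3 and was highest in D16S-.

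Only 7 members were higher in D12S+ than in D12S-, namely Pim2, Krt6a, Fosb, Fos, Klk14, Lrrn2 and Map2. Pim2, a serine/threonine kinase gene, stood at 3.40 FPKM in D0, 12.9 in D3, 70.5 in D6T-, 16.4 in D6T+, 79.0 in D9T-, 48.6 in D9T+, 76.8 in D12S+, 47.9 in D12S-, 28.5 in D16S+, 16.8 in D16S-, 21.1 in iPSCs and 23.1 in ESD3. Its log2 difference on day 12 was 0.67, and it was higher on the successful route on each of the 4 sorted days. For the other 6 genes the day 12 differences were 0.02 to 0.26.

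The unsuccessful route kept many members above the low libraries. At least 2-fold above the highest of D0, D16S+, iPSCs and ESD3 were 180 members (76.9%) in D12S-, against 3.55% of kept genes, and 125 (53.4%) in D16S-, against 3.91%. In D12S+ there were 87 (37.2%), against 1.35%. Some 94 members passed this level in D12S- and not in D12S+, and 1 did the reverse. None of D12S-, D12S+ and D16S- passed it for 51 members. Part of these counts follows from the low values that the rule required of the reference libraries. The order D12S- above D12S+ above D16S+ held for 225 members, with D16S+ used by the rule. The counts of 94, 1, 51 and 225 were not made over all kept genes.

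From D12S- to D16S-, neither used by the rule, 208 members were lower and 26 higher. At least 2-fold lower were 25 (10.7%), against 0.536% of kept genes, and 0 were 2-fold higher, against 2.03%. The median log2 difference was -0.43 for members and -0.18 for the 789 other induced genes. Compared with D0, 152 members (65.0%) were still at least 2-fold higher in D16S-, against 12.8% of kept genes, and 68.1% of the other induced genes were so. None was 2-fold lower, against 11.4% of kept genes. On day 16, 230 members were lower in D16S+ than in D16S- and 156 (66.7%) by at least 2-fold, against 15.2% of kept genes, and 0 were 2-fold higher, against 11.8%, a comparison whose lower side the rule set. The largest day 16 differences, D16S- minus D16S+, were 3.78 for Acsbg1, Cdh13 and Crym, 3.53 for Avil and 3.43 for Aqp5. Pga5, a pepsinogen, and Pim2 were the lowest at -0.84 and -0.73.

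Most members were higher before the first sort. Between D0 and D3, 142 members (60.7%) were at least 2-fold higher, against 5.76% of kept genes and 40.1% of the other induced genes, and 5 were at least 2-fold lower, against 8.67%. The median difference was 1.24 log2 units. In D3 alone, 101 members (43.2%) were already 2-fold above all 4 low libraries, against 2.08% of kept genes, and 25 had their highest value there. The largest differences from D0, in log2 units, were 6.75 for Hbb-y, 5.99 for Crym, 5.71 for Akr1c18, 5.50 for Anxa8, an annexin of stratified epithelia, and 5.46 for Avil. The 5 members that were lower were Penk at -1.88, Sned1 at -1.37, Egr1 at -1.08, Begain at -1.06 and Egr2 at -1.06. Since the rule asked for a low D0, the direction of most of these differences was favoured by the choice of members.

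Between D3 and day 6 the fractions parted. From D3 to D6T- 97 members were at least 2-fold higher (41.5%), against 3.96% of kept genes, and 6 were 2-fold lower, against 6.62%. From D3 to D6T+, neither used by the rule, 36 (15.4%) were at least 2-fold higher, against 5.16%, and 17 were 2-fold lower, against 1.79%, with a median of 0.01. From D6T+ to D9T+, also unused, 62 (26.5%) were 2-fold higher, against 4.92% of kept genes and 26.5% of the other induced genes, 1 was 2-fold lower, against 1.38%, and the median was 0.51. In the Thy-1+ fraction the median member thus differed little from D3 on day 6 and was above it on day 9. On day 6, 94 members (40.2%) were 2-fold higher in T- than in T+, against 2.93% of kept genes, and 2 were 2-fold lower, against 9.47%. On day 9 the count was 11 (4.70%), against 1.81%, and 3 were 2-fold lower, against 6.45%. The other induced genes gave 28.6% on day 6 and 12.2% on day 9. The rule used the T- side of both days.

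Along the successful route the median member differed by 0.06 log2 units between D6T- and D9T-, a small difference that the rule favoured by asking for both to be high. From D6T- to D9T-, 12 members (5.13%) were at least 2-fold higher, against 5.06% of kept genes, and 9 (3.85%) were 2-fold lower, against 1.14%. From D9T- to D12S+, 129 (55.1%) were 2-fold lower, against 3.30% of kept genes and 7.86% of the other induced genes, and 1, Aqp5, was 2-fold higher, against 7.05%. From D12S+ to D16S+, 123 (52.6%) were 2-fold lower, against 5.32%, and 0 were 2-fold higher, against 3.59%. From D9T- to D12S-, 26 (11.1%) were 2-fold lower, against 1.04%, and 3, Aqp5, Cdh13 and Itgb4, were 2-fold higher, against 3.63%. The comparisons share D9T- or D12S+, and the rule set high D6T- and D9T- and a low D16S+.

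The preference for a Thy-1 fraction differed between members. The 9 members that were 2-fold higher in the Thy-1- fraction on both days were Arhgap36, Atp12a, Hbb-y, Mbnl3, Oit1, Prkcb, Rap1gap2, Tex35 and Zkscan2. Ednrb, the endothelin B receptor, was the opposite. It stood at 0.423 FPKM in D0, 0.846 in D3, 2.35 in D6T-, 12.2 in D6T+, 3.59 in D9T-, 22.3 in D9T+, 2.49 in D12S+, 6.93 in D12S-, 0.662 in D16S+, 7.24 in D16S-, 0.0159 in iPSCs and 0.0549 in ESD3. Aqp5, a water channel of secretory epithelia, stood at 7.97 FPKM in D0, 70.3 in D3, 65.1 in D6T-, 210 in D6T+, 29.9 in D9T-, 142 in D9T+, 65.1 in D12S+, 112 in D12S-, 9.44 in D16S+, 111 in D16S-, 0.900 in iPSCs and 1.94 in ESD3. Both genes passed the rule although they were higher in the Thy-1+ fraction on both days. The log2 differences, T- minus T+, were -1.98 on day 6 and -2.35 on day 9 for Ednrb, and -1.68 and -2.21 for Aqp5. Egr2 was the remaining gene past 2-fold in this direction, on day 9, at -1.01.

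**Figure D4:**
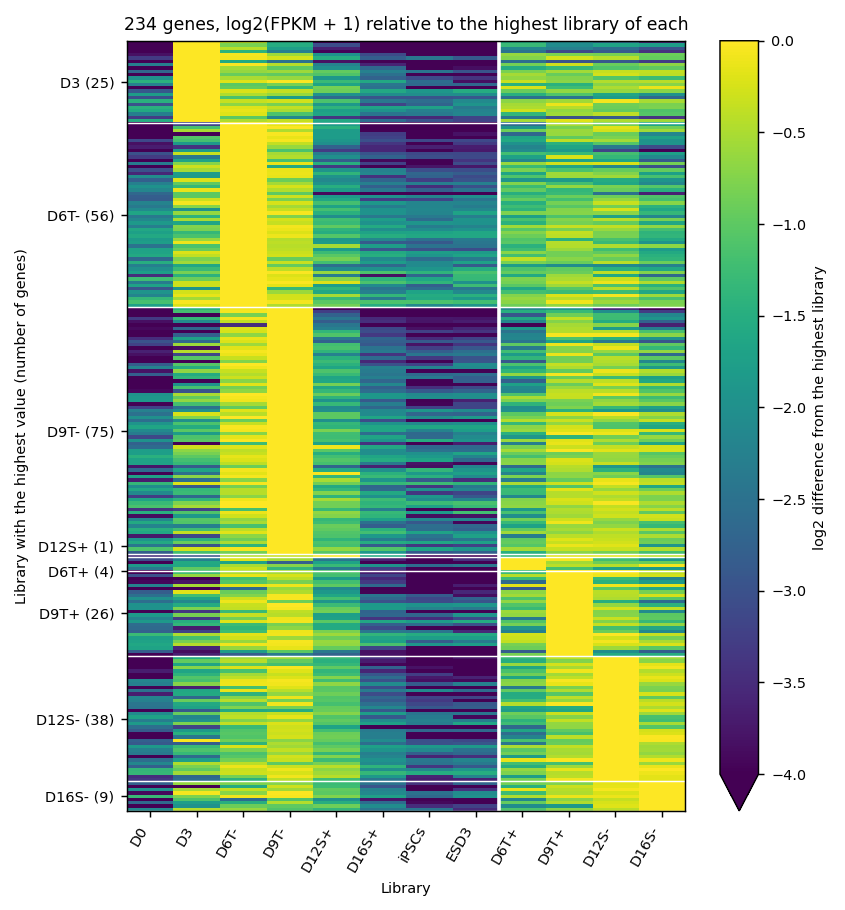
Heatmap of the 234 members (rows, grouped by the library with the highest value and ordered by margin within a group) in 12 libraries (columns); colour is log2(FPKM + 1) minus the gene's highest library, with 4 or more log2 units below it darkest. The 75 genes highest in D9T- and 56 highest in D6T- form the largest blocks, and 38 genes peak in D12S- and 26 in D9T+, to the right of the white line where the unsuccessful route begins.

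The members did not share a single profile. The highest library was D9T- for 75, D6T- for 56, D12S- for 38, D9T+ for 26, D3 for 25, D16S- for 9, D6T+ for 4 and D12S+ for 1, the last being Fos. Of the 6 libraries not used by the rule, all 6 were 2-fold above the low libraries for 32 members and none for 16. The former included Foxd1, Crabp2, Crym, Ephx1 and Myc. The 16 members above the low libraries in none of the 6 included Tet3, a DNA dioxygenase, Clock, a circadian factor, Nfib, a nuclear factor, the gephyrin gene Gphn, and Mbnl3, a splicing regulator. D9T+ reached that level for 184 members (78.6%), against 3.70% of kept genes, and D6T+ for 95 (40.6%), against 1.82%.

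Promoter windows were read to see what the members shared outside their levels. Windows ran from 250 bases before to 50 bases after the annotated start (mm9, GENCODE M1) and could be placed for 222 of 234 members and 13011 of 14178 kept genes. Both strands were searched for GGGTGTGG and GGGCGTGG, which Klf4 recognises and which differ at 1 base, for TGANTCA, the AP-1 element, and for TATAAA. GGGTGTGG was in 13 member windows (5.86%) against 3.90% of kept-gene windows, and GGGCGTGG in 6 (2.70%) against 9.12%. TGANTCA was in 11 (4.96%) against 5.46%, and TATAAA in 22 (9.91%) against 8.02%. Windows with 3 or fewer CpG dinucleotides were 34 (15.3%) of the members' and 7.95% of the kept genes', with medians of 15 and 19 CpG. Over all 20504 windows placed, of kept and other genes, the share was 24.0% and the median 12 CpG. The 100 bases before the start are shown for a few members with such a match, on the strand of the gene and with the match in capitals, and for Hbb-y, which has the largest margin and no match there. A match is a description of letters and does not show that a factor bound.
Ano1, minus strand, chr7:151937880-151937979, AP-1 letters: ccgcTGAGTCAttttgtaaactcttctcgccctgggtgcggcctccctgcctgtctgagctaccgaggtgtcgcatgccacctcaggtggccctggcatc
Crym, minus strand, chr7:127345626-127345725, AP-1 letters: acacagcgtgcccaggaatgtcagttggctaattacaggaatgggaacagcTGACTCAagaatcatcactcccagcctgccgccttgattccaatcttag
Ephx1, minus strand, chr1:182951036-182951135, AP-1 letters: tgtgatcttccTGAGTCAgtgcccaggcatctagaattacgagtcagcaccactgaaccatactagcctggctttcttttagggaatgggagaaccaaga
Mst1, plus strand, chr9:107982667-107982766, Klf4 letters: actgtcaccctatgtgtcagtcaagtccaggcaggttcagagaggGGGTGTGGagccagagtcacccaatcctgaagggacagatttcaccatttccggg
Mfsd6, minus strand, chr1:52784307-52784406, Klf4 letters: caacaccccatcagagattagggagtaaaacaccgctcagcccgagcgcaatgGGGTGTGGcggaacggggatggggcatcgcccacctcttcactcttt
Fos, plus strand, chr12:86814740-86814839, TATA letters: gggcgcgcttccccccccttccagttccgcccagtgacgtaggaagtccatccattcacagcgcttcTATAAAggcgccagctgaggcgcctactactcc
Hbb-y, minus strand, chr7:111001755-111001854, no match: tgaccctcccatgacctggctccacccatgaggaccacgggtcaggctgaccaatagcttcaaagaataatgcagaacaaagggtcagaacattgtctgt

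Position was compared by the start of the locus listed for each gene. By that measure 21 of 234 members (8.97%) had another member within 100 kb, in 10 groups. Chn2 and Prr15 are listed with the same locus, but their annotated starts on chr6, 53989548 and 54277006, lie more than 100 kb apart. The share to be expected of a random set of this size was not computed. Another kept gene lay within that distance for 67.9% of members and 83.2% of all kept genes. The largest group held 3 genes on chr16:22813288-22939841, Tbccd1 and the fetuin genes Ahsg and Fetub. Fetub, a secreted protease inhibitor, stood at 5.50 FPKM in D0, 52.4 in D3, 83.6 in D6T-, 45.5 in D6T+, 121 in D9T-, 65.1 in D9T+, 48.0 in D12S+, 82.0 in D12S-, 24.0 in D16S+, 73.7 in D16S-, 6.83 in iPSCs and 12.6 in ESD3. Ahsg had the same highest library at 21.1 FPKM, and Tbccd1, a tubulin cofactor-like gene, was highest in D6T- at 22.5. The X chromosome held 10 members (4.27%), against 3.30% of kept genes, among them Pim2, Mbnl3 and Xist.

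Roles were assigned by hand after the members were known, to 107 members in 10 groups, and 127 members were given none. The counts of each group below stand beside those of all 234 members, of which 76.9% were 2-fold above the low libraries in D12S-, 37.2% in D12S+ and 53.4% in D16S-, and 30.8% were at least 2-fold lower in D12S+ than in D12S-. The groups are small, and no group was shown to differ from the other members. Among transcription factors, the 19 members ranged from the virus-encoded factors to factors of neural lineages. Klf4 stood at 11.7 FPKM in D0, 359 in D3, 587 in D6T-, 242 in D6T+, 658 in D9T-, 586 in D9T+, 456 in D12S+, 762 in D12S-, 127 in D16S+, 691 in D16S-, 56.5 in iPSCs and 62.0 in ESD3. Myc followed the same order on days 12 and 16, at 318 FPKM in D12S+, 627 in D12S-, 92.6 in D16S+ and 599 in D16S-. Dmrtc2 stood at 0 FPKM in D0, 3.45 in D3, 69.1 in D6T-, 10.1 in D6T+, 67.1 in D9T-, 44.7 in D9T+, 19.3 in D12S+, 36.5 in D12S-, 6.24 in D16S+, 14.6 in D16S-, 0.629 in iPSCs and 4.04 in ESD3. With Foxd1 it showed the widest day 6 differences between the Thy-1 fractions, at 2.66 and 2.60 log2 units. Tox3, Insm1, Sox21, Sox6, Meox2, Tlx2 and Sp9 peaked between 1.38 FPKM in Sox6 and 32.9 FPKM in Sox21. Of the 19, 15 stayed 2-fold above the low libraries in D12S- and 7 in D12S+, and 4 were at least 2-fold lower in D12S+ than in D12S-.

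The 4 immediate early genes differed by less than 2-fold between the day 12 fractions. Fos and Fosb encode AP-1 subunits, and Egr1 and Egr2 are zinc-finger factors induced by growth-factor signalling. Fos stood at 16.2 FPKM in D0, 23.3 in D3, 141 in D6T-, 74.9 in D6T+, 150 in D9T-, 167 in D9T+, 190 in D12S+, 171 in D12S-, 63.3 in D16S+, 145 in D16S-, 4.86 in iPSCs and 6.90 in ESD3. Egr1 stood at 61.9 FPKM in D0, 28.7 in D3, 148 in D6T-, 102 in D6T+, 240 in D9T-, 386 in D9T+, 131 in D12S+, 170 in D12S-, 43.5 in D16S+, 127 in D16S-, 7.55 in iPSCs and 4.35 in ESD3. The 4 genes had a median D12S+ minus D12S- difference of -0.09 and none was 2-fold lower. Their median difference between D3 and D0 was -0.46, and none was 2-fold above the low libraries in D3.

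Neural and neuroendocrine genes formed the largest of the groups, with 22 members. Besides Tac2 they included Penk, the enkephalin precursor, the synaptic vesicle genes Syt1, Sv2b and Sv2c, and Scg5, a secretory granule chaperone. Syt1 stood at 0.130 FPKM in D0, 6.17 in D3, 8.09 in D6T-, 2.94 in D6T+, 5.29 in D9T-, 2.66 in D9T+, 0.835 in D12S+, 2.97 in D12S-, 0.166 in D16S+, 1.74 in D16S-, 0.0364 in iPSCs and 0.0387 in ESD3. Scg5 was highest in D3 at 41.6 FPKM, and Penk, lower in D3 (4.43 FPKM) than in D0, was highest in D9T+ at 63.1. The group was low on the whole, with a median of 7.93 FPKM in D9T-, 14 of 22 above the low libraries in D12S- and 6 at least 2-fold lower in D12S+. Of a list of neuronal genes, 17 were kept and 2, Syt1 and Map2, were members, where 1.65% of all kept genes were. The list as a whole did not share this profile. It summed to 217 FPKM in D0, 438 in D3, 403 in D6T- and 207 in D9T-. On day 12, 6 of the 17 were at least 2-fold higher in D12S+ and 1 lower, against 4.79% and 3.03% of kept genes.

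Channels, pumps and carriers gave 16 members. Besides Ano1 and Aqp5 they included Atp2a3, a calcium pump, Atp12a, a proton pump, Cacna2d2, a calcium channel subunit, Slc6a6, the taurine carrier, Mfsd2a, a lysolipid carrier, and Abca1, which exports cholesterol. Of the 16, 8 were at least 2-fold lower in D12S+ than in D12S-, the median was -0.998, and 15 stayed above the low libraries in D12S-. Abca1 stood at 1.10 FPKM in D0, 12.4 in D3, 23.2 in D6T-, 18.4 in D6T+, 27.1 in D9T-, 23.2 in D9T+, 13.9 in D12S+, 34.4 in D12S-, 3.72 in D16S+, 27.6 in D16S-, 2.66 in iPSCs and 0.434 in ESD3. Nr1h3, the oxysterol receptor LXR-alpha and a known regulator of Abca1, was also a member, at 0.806 FPKM in D0, 5.10 in D9T-, 9.78 in D9T+, 2.65 in D12S+ and 7.45 in D12S-. Both genes were 2-fold above the low libraries in all 6 libraries the rule did not use.

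The retinoid, steroid and xenobiotic group held 10 members, all of them above the low libraries in both D12S- and D16S-. Crabp2, a retinoic acid-binding protein, stood at 51.1 FPKM in D0, 225 in D3, 252 in D6T-, 229 in D6T+, 423 in D9T-, 323 in D9T+, 363 in D12S+, 669 in D12S-, 79.0 in D16S+, 565 in D16S-, 7.72 in iPSCs and 6.65 in ESD3. Ephx1, the microsomal epoxide hydrolase, stood at 123 FPKM in D0, 394 in D3, 512 in D6T-, 508 in D6T+, 530 in D9T-, 572 in D9T+, 286 in D12S+, 539 in D12S-, 91.3 in D16S+, 509 in D16S-, 10.9 in iPSCs and 43.8 in ESD3. Ephx1 hardly differed between the Thy-1 fractions. Aldh1a1 was lower in level, at 13.5 FPKM in D9T- and 1.74 in D12S+. The median of the group on day 12 was -1.003 and 5 of 10 were at least 2-fold lower in D12S+. Of lists of pathway genes, 3 of 20 kept retinoid genes, among them Crabp2 and Aldh1a1, were members. So were 2 of 34 kept NRF2 target and glutathione genes (Ephx1, Akr1c18), where 1.65% of all kept genes were members. The retinoid list as a whole did not share this profile. It summed to 6515 FPKM in D0, 647 in D6T- and 807 in D9T-, with 4 of 20 genes at least 2-fold higher in D9T- than in D0 and 5 lower, and a median of -0.23.

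Epidermal and basal epithelial genes gave 9 members after the keratins with numbered symbols were set aside. They included Itgb4, a hemidesmosome integrin, Pkp1, a desmosome plaque protein, Cnfn, a cornified envelope protein, and the surface proteins Ly6c1 and Lypd2. Itgb4 stood at 1.53 FPKM in D0, 27.9 in D3, 70.4 in D6T-, 61.0 in D6T+, 72.4 in D9T-, 68.4 in D9T+, 111 in D12S+, 211 in D12S-, 27.4 in D16S+, 185 in D16S-, 9.42 in iPSCs and 5.37 in ESD3. Ly6c1 stood at 7.31 FPKM in D0, 11.7 in D3, 109 in D6T-, 114 in D6T+, 261 in D9T-, 258 in D9T+, 136 in D12S+, 291 in D12S-, 40.8 in D16S+, 321 in D16S-, 0.363 in iPSCs and 0.579 in ESD3. Between the Thy-1 fractions the genes went both ways, with group medians of 0.20 and 0.01 log2 units (T- minus T+) on days 6 and 9. On day 6, Pkp1 stood at 1.16 and Cd109 at 1.06, while Lypd2 stood at -0.70 and Cnfn at -0.69. All 9 were above the low libraries in both D12S+ and D12S-. Of lists of such genes, 2 of 38 kept cornified envelope genes, 1 of 27 desmosome and epithelial junction genes and 2 of 18 Ly6/uPAR genes were members, against 1.65% of all kept genes. The desmosome and junction list as a whole went the other way on day 12, with 12 of 27 at least 2-fold higher in D12S+, against 4.79% of kept genes, and 1 lower. The other lists did not share the members' profile either. On day 12 the cornified list had 2 of 38 higher and 2 lower, with a median of 0.09. The Ly6/uPAR list had 2 of 18 higher and 3 lower, against 4.79% and 3.03% of kept genes, with a median of -0.14. Both sums were highest in D16S-, at 941 and 2630 FPKM.

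Secreted and matrix genes gave 13 members, of which 8 were at least 2-fold lower in D12S+, with a median of -1.06. Clec3b, the gene for tetranectin, stood at 0.0549 FPKM in D0, 2.85 in D3, 44.5 in D6T-, 36.2 in D6T+, 179 in D9T-, 274 in D9T+, 61.9 in D12S+, 136 in D12S-, 10.6 in D16S+, 91.7 in D16S-, 0.201 in iPSCs and 0 in ESD3. Fbn2, a microfibril protein, was highest in D6T- at 54.1 FPKM and stood at 2.70 in D12S+ and 8.84 in D12S-. The 4 Wnt and Notch members were Wnt16, the Wnt inhibitor Sfrp4, the Notch ligand Jag1 and its modifier Lfng. Wnt16 was highest in D3 at 36.4 FPKM and Sfrp4 in D9T- at 17.1. The heparan sulfate sulfotransferases Hs3st3a1, Hs3st3b1 and Hs6st1 were members at peaks of 4.65, 7.61 and 197 FPKM.

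Genes known from blood and immune cells, 7 in all, had the largest median margin of the groups at 2.21. Besides Hbb-y they included Fcgr2b, an Fc receptor, Spn, a leukocyte sialoprotein, Blnk, a B-cell adaptor, Prkcb, Cd24a and Aoah. The macrophage and leukocyte list held none of them, and 7 of its 18 kept genes were at least 2-fold lower in D9T- than in D0, with 2 higher. Fcgr2b stood at 0.551 FPKM in D0, 4.27 in D3, 21.4 in D6T-, 6.79 in D6T+, 34.8 in D9T-, 33.6 in D9T+, 15.7 in D12S+, 33.5 in D12S-, 2.57 in D16S+, 21.2 in D16S-, 0.301 in iPSCs and 0.320 in ESD3. Tek, the angiopoietin receptor, was the single member of 11 kept endothelial genes and reached 16.5 FPKM in D9T-. Pecam1, a defining endothelial marker, stood at 1.16 FPKM in D9T- and 61.1 in ESD3, and Cdh5 at 0.723 in D9T- and 11.8 in D0. The endothelial list summed to 45.1 FPKM in D9T-, 55.6 in D0 and 121 in ESD3. The lists for canonical Wnt targets, epithelial transcription factors, S100 proteins, clade B serpins, EGF family, eicosanoid enzymes, trophoblast, mesendoderm, muscle, inflammatory cytokines and germline held no member either, with 8 to 23 kept genes each. At an overall share of 1.65% a list of that size would often hold none, and nothing is read from these zeros.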

How the data were processed

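Polyadenylated RNA of 12 mouse libraries, 1 per condition, was prepared by the authors with a TruSeq kit, the stranded mRNA kit per the labels and a kit not called stranded in the study's methods, so that antisense overlap may not be separated. Per the labels and the study's methods, reads were mapped to mm9 with STAR, reads with more than 2 mismatches or more than 1 locus were removed, and cuffdiff gave the deposited FPKM with an interval and a status word per gene and library. The status was OK for every member. Software versions, the gene annotation and the scaling of cuffdiff are not given in the sources used here. The error model behind the interval is not given in the sources used here. With 1 library per condition, it cannot rest on replicate cultures. Genes with close paralogs can be under-counted, because multi-locus reads were dropped.

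Columns were matched to samples by day and sign of the sort. The 24098 genes of the table were reduced to 14178 with FPKM of at least 1 in any library, and log2(FPKM + 1) was used, which understates changes of low genes. A 2-fold difference on that scale stands in for a test. Depth was read as relative only. Members and lists were chosen with earlier results of these data known. The named genes were the 15 largest margins, the 5 genes nearest the threshold on each side, members of the gene lists, members within 100 kb of each other and, among members with a peak of at least 10 FPKM, the 5 highest and 5 lowest in each of 5 contrasts (D3 against D0 and the sorted pairs). All other genes named, the role groups, the 12 plotted genes and the promoters shown were picked after their values were seen. Promoters were read from the mm9 genome at GENCODE M1 starts. Python 3.11.15 with numpy 2.4.6, pandas 2.3.3 and matplotlib 3.10.9 was used, and the selection was tested on simulated data. Alternatives were another pseudocount, filters, scalings, margins and folds, and the rule without each of its libraries. Items withheld from this text are not reported here.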

Additional observations from a re-analysis of the deposited data

Results flagged for a closer look

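The difference between the successful and the unsuccessful route turned direction over time in the median member. Successful minus unsuccessful, it was 0.80 log2 units for day 6, 0.31 for day 9, -0.82 for day 12 and -1.39 for day 16. A change in direction drew attention to these 4 values; with 1 library per fraction the difference between days was not tested. The rule asked for high D6T- and D9T- and a low D16S+. It thus favoured a positive value on days 6 and 9 and a negative value on day 16. It used no day 12 library, but it asked for low iPSCs and ESD3 too. Nanog was 78.2 FPKM in D12S+ and 9.48 in D12S-, so a negative value may have been favoured on day 12 as well. Sorts up to day 9 used Thy-1 and later sorts SSEA-1, and marker and time cannot be told apart. Pim2 kept the same direction on all 4 days, and Ednrb and Aqp5 were higher on the unsuccessful route on all 4.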

How the results depend on the processing

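Of 196 planned recomputations 172 stayed within their limits, 24 moved and 0 reversed; of 14 added after the data were seen, 13 stayed and 1 moved. The number of members was 390 with a pseudocount of 0.1, 57 with a 4-fold margin, 783 without D0 in the rule, 443 without D6T- and 352 without D9T-. With the pseudocount of 0.1 the median from D0 to D3 was 1.87, and the shares past 2-fold were 10.0% for D9T- over D6T-, 18.5% for D12S- under D9T-, 20.8% for D16S- under D12S- and 9.23% for D9T- over D9T+. A 4-fold margin gave 59.6% for D12S+ under D12S-. At a 4-fold difference the shares were 29.5% for D3 over D0, 14.1% for D6T- over D3, 0.427% for D9T- over D6T-, 7.69% for D12S+ under D9T-, 8.12% for D16S+ under D12S+, 1.71% for D12S- under D9T-, 0.427% for D16S- under D12S-, 5.98% for D6T- over D6T+, 0% for D9T- over D9T+, 6.41% for D9T+ over D6T+, 3.85% for D6T+ over D3, 0% for D12S+ under D12S-, 24.4% for D16S+ under D16S- and 35.9% for D16S- over D0, as a stricter limit counts fewer genes. The causes of the other moves were not tested. With each of the 6 libraries left out of the rule in turn, the day 12 share was 22.4% to 32.4% and its median -0.85 to -0.70. Each of these rules still asked for low values in iPSCs, ESD3 or both, so the range does not free day 12 from the choice of members. No paired analysis was possible because each condition was 1 library, so that a replicate block would leave no second pair to estimate any spread from. Without replicates, the spread between cultures is unknown, and the wide intervals limit what any single gene shows.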

Other observations

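The opposite pattern was less common. By the mirrored rule, with the higher of D6T- and D9T- at least 2-fold below the lowest of D0, D16S+, iPSCs and ESD3, 80 of the 14178 kept genes were found, against 239 for the rule itself before the named genes were set aside. This rule was chosen after the data were seen. The widest margins were 2.64 log2 units for Bcar3, an adaptor of integrin signalling, 2.32 for Plcd1, a phospholipase C, 2.22 for Rbpms2, an RNA-binding protein, 2.05 for Axin2, a feedback inhibitor and target of Wnt signalling, and 2.03 for Cotl1, an actin-binding protein. Axin2 stood at 5.04 FPKM in D0, 1.34 in D3, 0.357 in D6T-, 1.44 in D6T+, 0.419 in D9T-, 1.23 in D9T+, 2.36 in D12S+, 0.924 in D12S-, 5.52 in D16S+, 1.98 in D16S-, 19.8 in iPSCs and 4.88 in ESD3. It was lower in the Thy-1- fraction on days 6 and 9 and higher in the SSEA-1+ fraction on days 12 and 16. Rbpms2 stood at 48.4 FPKM in D0, 8.70 in D6T-, 9.59 in D9T-, 79.7 in D12S+, 17.7 in D12S- and 113 in D16S+.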
